A study of Mus musculus with 13 samples.

Results

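The genes described here are the Gadd45 stress genes, the inhibitors of cyclin-dependent kinases (CDKs) and the p53 axis, followed in splenic dendritic cells. A list of 10 genes was read from the array table: Gadd45a, Gadd45b, Gadd45g, Cdkn1a, Cdkn1b, Cdkn2c, Mdm2, Trp53, Ccng1 and Sesn2. A member was any listed gene with a probe set that carries its symbol alone, and among several such probe sets the one to be used was chosen by its mean over the 13 arrays. Of the 10 genes, 8 qualified, out of 22180 genes in all, and each had 1 probe set, so no value decided between probe sets. Gadd45a shares its probe set with another symbol and Trp53 was not matched to a probe set, so both were not analysed here.

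The cells were CD205+CD8+ dendritic cells sorted from spleens of C57Bl/6 littermate mice, labelled male. These cells, the type 1 conventional dendritic cells (cDC1), present antigen from dead cells to CD8 T cells. Each mouse, 6 weeks old, was given a subcutaneous B16 melanoma that releases Flt3L, the cytokine on which dendritic cells depend. An intraperitoneal injection followed 5 days later, consisting of 100 ul of PBS either alone or with 50 ug of muramyl dipeptide (MDP), a piece of bacterial cell wall sensed by the receptor NOD2, and spleens were taken 24 h later. Cells were then divided by surface CD103, an integrin, into a low and a high gate. Of the 4 groups, that of CD103 low cells from PBS mice has 4 arrays, and those of CD103 high cells from PBS mice and of both subsets from MDP mice have 3 each. CD103 was read after the injection, so the cells in a gate may differ between treatments. Itgae, the gene of CD103, was itself higher after MDP within each gate, with values given below. The labels do not say whether each array stands for a different mouse, so the p-values measure the spread between these samples, which may be technical.

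Gadd45 proteins are small stress sensors that bind the kinase MAP3K4 and so feed the p38 and JNK pathways, and Gadd45b is also a target of NF-kB. The transcription factor p53 induces Cdkn1a, Mdm2, Ccng1 and Sesn2, and Mdm2 in turn marks p53 for destruction. CDK inhibitors of the Cip/Kip family, Cdkn1a and Cdkn1b, act on several cyclin-CDK complexes, whereas the INK4 protein Cdkn2c acts on Cdk4 and Cdk6. In dendritic cells, division goes on in immature cells and ends with maturation.

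Sequences ahead of the transcription starts are shown for the Gadd45 paralogs, because Gadd45b fell in one comparison and Gadd45g was called in none, and for the members with a p53 half-site. They come from RefSeq (GRCm38.p6) and read 5′ to 3′ on the strand of the gene. All 8 members were matched there, with 10 start sites. The 250 bases before the start of Gadd45b (chr10:80929841-80930090, plus strand, the gene itself running from 80930091 to 80932204) and of Gadd45g (chr13:51846425-51846674, plus strand) have the TATA box (TATAAA), an E box (CACGTG) and the CCAAT box in capitals.
Gadd45b: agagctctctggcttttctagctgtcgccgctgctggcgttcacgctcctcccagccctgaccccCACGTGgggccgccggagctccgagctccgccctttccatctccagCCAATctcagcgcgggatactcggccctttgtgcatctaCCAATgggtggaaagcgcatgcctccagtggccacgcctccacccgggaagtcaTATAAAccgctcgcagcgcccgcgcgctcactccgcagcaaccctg
Gadd45g: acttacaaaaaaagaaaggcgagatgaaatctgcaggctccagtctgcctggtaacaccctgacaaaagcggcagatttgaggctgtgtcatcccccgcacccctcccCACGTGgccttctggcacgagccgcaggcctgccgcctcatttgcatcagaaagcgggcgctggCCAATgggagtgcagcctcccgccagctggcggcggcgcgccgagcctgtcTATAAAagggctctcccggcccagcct

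Both windows hold all 3 of these motifs, which were picked after the windows had been read and were searched on both strands. The TATAAA begins 46 bases before the start in Gadd45b and 27 before it in Gadd45g, and the CACGTG begins 185 and 142 bases before it. Of 32851 windows of the same length, 12.4% hold TATAAA, 6.02% hold CACGTG, 33.8% hold CCAAT and 0.167% hold all 3. An NF-kB site, searched by the usual kappa-B consensus on both strands, was matched in 7.25% of all windows and in 0 of the 10 windows of the members. A p53 half-site, searched by its consensus, which reads alike on both strands, was matched in 7.13% of all windows and in 3 of the 8 members. Those matches are in capitals with 10 bases on each side. They lie at chr10:117710925-117710954 (minus strand), chr11:40755452-40755481 (minus strand), chr17:29090896-29090925 (plus strand) and chr17:29090918-29090947 (plus strand), in this order. No position in these windows was measured by the arrays, and a match is a description of letters only.
Mdm2: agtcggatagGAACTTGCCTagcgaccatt
Ccng1: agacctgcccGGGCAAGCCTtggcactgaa
Cdkn1a: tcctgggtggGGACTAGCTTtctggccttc
Cdkn1a: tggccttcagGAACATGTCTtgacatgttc

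The values are log2 expression values, so a difference of 1 is a doubling. Markers of the sorted type were high: of 12 cDC1 markers 11 were measured and all 11 lay above 5.12, the 95th percentile of 1105 olfactory receptor genes, which served as a measure of background. Among these, Itgae, Cd8a and Ly75 encode CD103, CD8 and CD205, on which the cells were sorted. Markers of other cells lay above that level for 2 of 7 measured T cell genes, 2 of 9 B cell genes, 3 of 8 natural killer cell genes and 3 of 10 B16 melanoma genes. The highest of each list were Cd5 (6.89), Ighm (11.52), Klrk1 (8.91) and Mitf (6.53). The others above that level were Lat (5.86), Ms4a1 (6.90), Prf1 (5.73), Nkg7 (5.85), Pmel (5.84) and Sox10 (5.37). Genes below it included Cd3e (4.65), Cd79a (3.87), Ncr1 (3.74) and Tyr (3.23). Over the 13 arrays the list means ranged from 4.84 to 5.06, 5.29 to 5.52, 5.08 to 5.34 and 4.72 to 4.93, and 0 genes of these 4 lists were called by limma in any comparison (at most 2 of a list at an unadjusted p under 0.05). In further lists more genes lay above 5.12, namely 10 of 12 for monocytes and macrophages and 8 of 10 for plasmacytoid dendritic cells. For type 2 conventional dendritic cells (cDC2) 7 of 10 did. Of the cDC1 list limma called 1 gene, as up, between PBS subsets and after MDP in each gate, and 0 between MDP subsets. Itgae ranged from 7.46 to 11.51 over the arrays and had the largest difference of the list in each of these comparisons. It was 2.23 higher in the high gate of PBS mice and 1.22 higher in that of MDP mice. After MDP it was 2.21 higher in the low gate and 1.20 higher in the high gate. Limma called 1 plasmacytoid gene as up in the high gate between PBS subsets, and 1 as down there after MDP. It called 1 cDC2 gene, as down in the high gate between MDP subsets, and 0 monocyte and macrophage genes. The part of all these other cells in the results was not tested. MDP CD103 low replicate 1 stood apart: its mean over 18 measured genes of mature CCR7-type dendritic cells was 8.58, whereas replicates 2 and 3 had 7.68 and 7.72. All mice are labelled male, and whether the arrays bear this out was not tested. Arrays were also classed by Xist, an RNA made in female cells, cut midway between its lowest and highest value, which puts some arrays above the cut in any data. The cut alone does not tell whether the cells of an array were male. Xist lay above it in 7 of 13 arrays, namely 2 of 4 in PBS CD103 low, 2 of 3 in PBS CD103 high, 1 of 3 in MDP CD103 low and 2 of 3 in MDP CD103 high. Group differences below come from limma fitted on all 22180 genes and 13 arrays, given as log2 difference ± SE, and a gene is called where its Benjamini-Hochberg adjusted p is under 0.05.

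Gadd45b fell in CD103 high cells after MDP, and it was the 1 member called in any of the 5 comparisons. In CD103 high cells of PBS mice it measured 9.31, 9.93 and 9.77. In CD103 high cells of MDP mice it measured 7.24, 7.68 and 8.11. Every MDP array lay below every PBS array, with more than 1 log2 unit between the groups. The means were 9.67 ± 0.32 (SD, n = 3) and 7.68 ± 0.44 (SD, n = 3), a log2 difference of -1.99 ± 0.41 (SE, limma adjusted p = 0.0271) or 3.98-fold lower (95% interval 2.16 to 7.34, unadjusted). In a bulk sample, fewer cells of a kind that makes much Gadd45b and less Gadd45b per cell cannot be told apart.

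In CD103 low cells the arrays of Gadd45b did not separate by treatment. It measured 9.12, 9.07, 8.99 and 8.79 in PBS mice, a tight group with a mean of 8.99 ± 0.14 (SD, n = 4). After MDP it measured 10.74 in replicate 1, 8.70 in replicate 2 and 8.91 in replicate 3. Replicate 1 held the highest Gadd45b value of all 13 arrays, while the other arrays of its group lay inside or just below the PBS range. The log2 difference was 0.46 ± 0.38 (adjusted p = 0.863), and without MDP CD103 low replicate 1 it was -0.19 ± 0.21 (adjusted p = 1.00), which turns its sign.

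**Figure D1:**
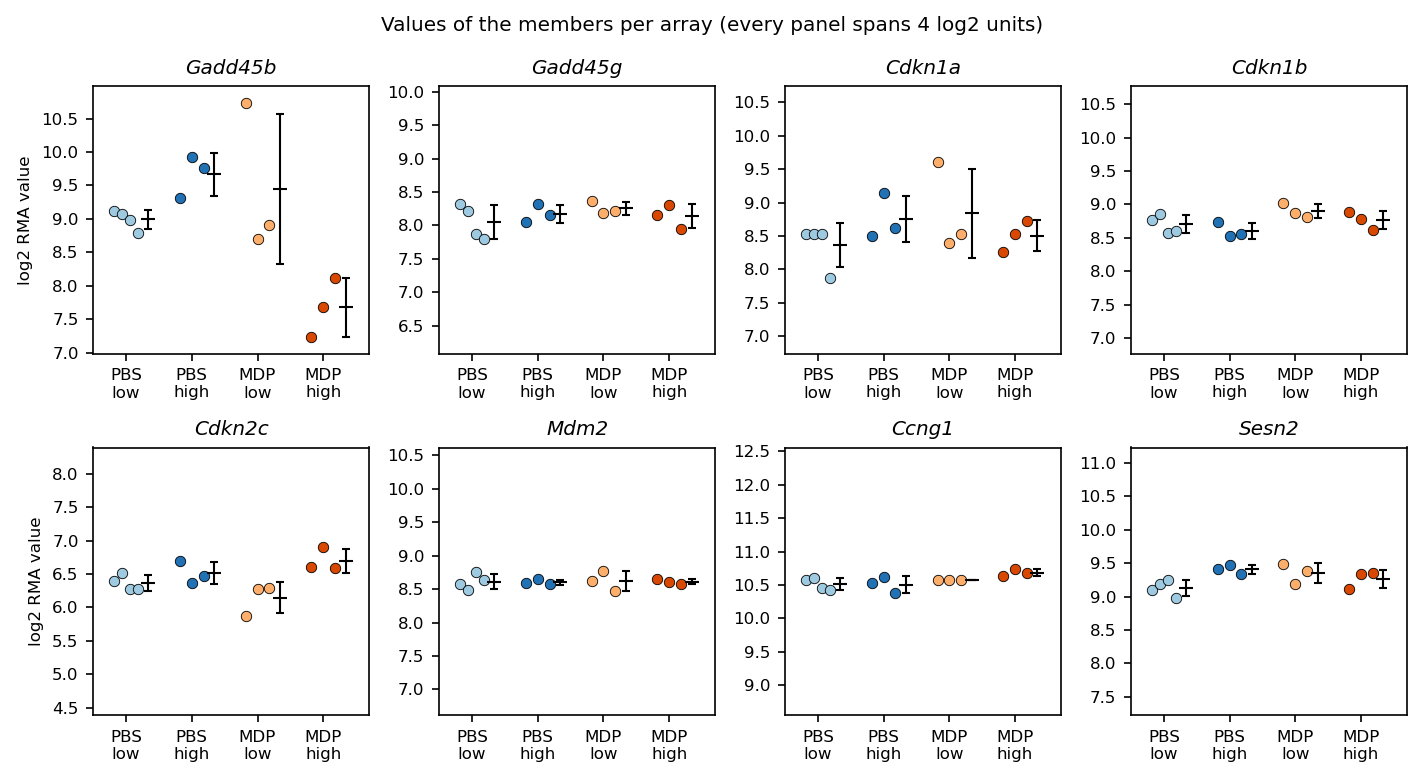
Log2 value of each of the 8 members (vertical axes, each spanning 4 log2 units) in the 4 groups (horizontal axes); a point is an array, and the bar beside the points is the group mean with its SD. Gadd45b ranged from 7.24 to 10.74 over the arrays, whereas Mdm2 stayed between 8.47 and 8.77 and Ccng1 between 10.37 and 10.74.

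Ordered by mean, Gadd45b was highest in PBS CD103 high cells (9.67), then MDP CD103 low (9.45), PBS CD103 low (8.99) and MDP CD103 high cells (7.68). The first 3 of these were not separated from their neighbours in the order beyond the spread: the arrays of PBS CD103 high and MDP CD103 low overlapped, as did those of MDP CD103 low and PBS CD103 low. The arrays of MDP CD103 high cells, at most 8.11, lay below all others, of which the lowest was 8.70. Between the subsets of MDP mice the difference was -1.77 ± 0.41 (adjusted p = 0.0910), which missed the threshold, and without MDP CD103 low replicate 1 it was -1.13 ± 0.23 (adjusted p = 0.0821). It passed without MDP CD103 low replicate 2 (-2.15 ± 0.41, adjusted p = 0.0415). Between the subsets of PBS mice it was 0.67 ± 0.38 (adjusted p = 0.685), although every CD103 high array lay above every CD103 low array. The MDP response of CD103 high cells minus that of CD103 low cells was -2.45 ± 0.56 (adjusted p = 0.113), so a difference between the responses was not established. These comparisons share groups of arrays and are not independent of each other.

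The spread of Gadd45b within groups was large beside that of other genes, with a pooled SD of 0.59, which exceeded that of 99.8% of genes. That of Cdkn1a was 0.41, at the 98.8th percentile, and that of Ccng1 0.08, at the 14.1th. The call of Gadd45b was lost without MDP CD103 high replicate 2 (-1.77, adjusted p = 0.124) or 3 (-1.99, adjusted p = 0.0918), and without PBS CD103 high replicate 5 (-1.86, adjusted p = 0.115) or 6 (-1.94, adjusted p = 0.116). Without MDP CD103 low replicate 1 it was -1.99 ± 0.20 (adjusted p = 0.00167). Among arrays with high Xist the difference was -1.72 (2 arrays against 2) and among those with low Xist -2.53 (1 against 1), and with this class as a covariate it was -1.99 ± 0.43 (adjusted p = 0.0368).

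Likeness with Gadd45b over the 13 arrays was ranked among 10727 genes above the olfactory level. Symbols of the Gm number, Rik, LOC, Mir, Snor, Scarna, Olfr and Vmn types were left out of these. The genes most like it were Relb (Pearson r = 0.985), Ccr7 (r = 0.976) and Sdhaf1 (r = 0.971). Without MDP CD103 low replicate 1 the values were 0.978, 0.964 and 0.956. These are descriptions over arrays that share 4 group means. Relb, a subunit of NF-kB, had group means of 8.60 in PBS CD103 low, 8.93 in PBS CD103 high, 8.87 in MDP CD103 low and 7.86 in MDP CD103 high cells, the same order of groups as Gadd45b. Relb and Ccr7, the receptor that leads mature dendritic cells to lymph nodes, fell in CD103 high cells after MDP, with log2 differences of -1.07 ± 0.24 (adjusted p = 0.0413) and -1.80 ± 0.34 (adjusted p = 0.0194). Between the subsets of MDP mice Ccr7 was called as well, lower in the CD103 high gate (-1.76 ± 0.34, adjusted p = 0.0437). Sdhaf1, an assembly factor of respiratory complex II, differed by -0.71 (adjusted p = 0.0747) and was not called.

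The mature CCR7-type list moved with Gadd45b. Its mean lay between 7.83 and 8.17 in PBS CD103 high arrays and between 7.28 and 7.41 in MDP CD103 high arrays. In CD103 low cells it lay between 7.64 and 7.83 in PBS arrays and between 7.68 and 8.58 in MDP arrays. In CD103 high cells all 18 measured members of that list had a log2 difference below 0 after MDP, with a median of -0.56 against -0.013 over all genes. Of these 18, 4 were called as lower (Ccr7, Relb, Birc3 and Cd80), where 0.397% of all genes were. The part of these cells in the fall of Gadd45b was not tested.

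**Figure D2:**
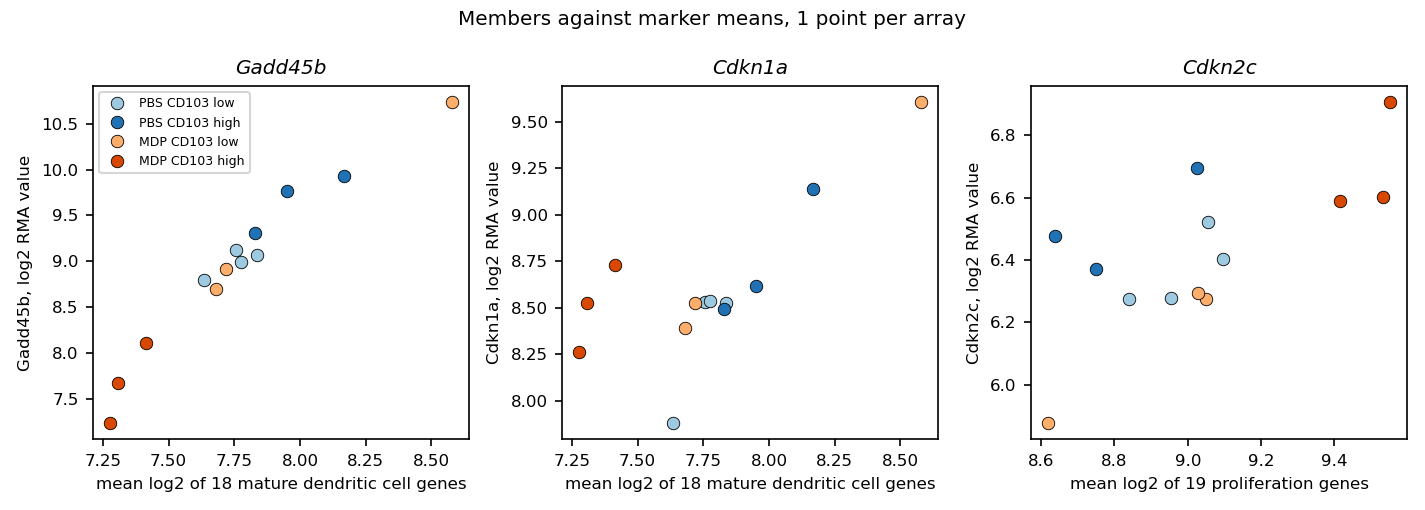
Log2 values of Gadd45b, Cdkn1a and Cdkn2c (vertical axes) against the mean log2 value of 18 mature dendritic cell genes or, for Cdkn2c, of 19 proliferation genes (horizontal axes), with 1 point per array coloured by group. Gadd45b was lowest in the 3 MDP CD103 high arrays, which had mature means of 7.28 to 7.41, and highest in MDP CD103 low replicate 1, which had 8.58.

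Gadd45g, the paralog printed above, was not called in any comparison. It measured 8.04, 8.32 and 8.16 in PBS CD103 high and 8.15, 8.31 and 7.95 in MDP CD103 high arrays, and the ranges overlapped. The log2 difference was -0.03 ± 0.14 (adjusted p = 0.948), with an unadjusted 95% interval from -0.33 to 0.27. In CD103 low cells it was 0.20 ± 0.13 (adjusted p = 0.831), and between the subsets 0.12 ± 0.13 (adjusted p = 0.870) in PBS mice and -0.12 ± 0.14 (adjusted p = 0.839) in MDP mice.

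Cdkn1a, which stops cells in G1 by blocking Cdk2 and also binds the replication clamp PCNA, was not called in any comparison. It measured 8.53, 8.52, 8.53 and 7.88 in PBS CD103 low and 8.49, 9.14 and 8.61 in PBS CD103 high arrays. After MDP it measured 9.61, 8.39 and 8.52 in CD103 low and 8.26, 8.52 and 8.73 in CD103 high arrays. The 4 groups overlapped, and the highest value again belonged to MDP CD103 low replicate 1. The difference after MDP was 0.47 ± 0.27 (adjusted p = 0.826) in CD103 low and -0.24 ± 0.29 (adjusted p = 0.790) in CD103 high cells. With single arrays left out, the difference in CD103 low cells ranged from 0.09, without MDP CD103 low replicate 1, to 0.70. Between subsets Cdkn1a differed by 0.38 ± 0.27 (adjusted p = 0.762) in PBS mice, with values of 0.19 without PBS CD103 high replicate 5 and 0.22 without PBS CD103 low replicate 6. In MDP mice the subset difference was -0.33 ± 0.29 (adjusted p = 0.763), and without MDP CD103 low replicate 1 its sign turned (0.05).

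Cdkn1b, which holds Cdk2 complexes until the ubiquitin ligase subunit Skp2 removes it, lay between 8.53 and 9.02 in all arrays. Its log2 difference after MDP was 0.20 ± 0.10 (adjusted p = 0.814) in CD103 low and 0.16 ± 0.10 (adjusted p = 0.569) in CD103 high cells. Between subsets it was -0.10 ± 0.10 (adjusted p = 0.849) in PBS and -0.14 ± 0.10 (adjusted p = 0.715) in MDP mice.

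Cdkn2c, the inhibitor of Cdk4 and Cdk6, had its largest difference between the subsets of MDP mice. It measured 5.88, 6.28 and 6.29 in MDP CD103 low and 6.60, 6.91 and 6.59 in MDP CD103 high arrays. These arrays did not overlap, and the difference was 0.55 ± 0.13, but the adjusted p of 0.102 missed the threshold. It passed when only genes above the olfactory level were tested (adjusted p = 0.0487). In PBS mice the arrays overlapped, at 6.40, 6.52, 6.28 and 6.28 in CD103 low and 6.70, 6.37 and 6.48 in CD103 high cells, and the difference was 0.14 ± 0.12 (adjusted p = 0.822). After MDP it was -0.22 ± 0.12 (adjusted p = 0.826) in CD103 low and 0.19 ± 0.13 (adjusted p = 0.609) in CD103 high cells. Beside it, the mean of 19 proliferation genes lay between 9.42 and 9.55 in MDP CD103 high arrays, against 8.62 to 9.05 in MDP CD103 low, 8.84 to 9.10 in PBS CD103 low and 8.64 to 9.03 in PBS CD103 high arrays. Its part in the values of Cdkn2c was not tested.

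The members of the p53 axis, Cdkn1a, Mdm2, Ccng1 and Sesn2, were not called in any comparison, and Trp53 was not analysed. Mdm2, the ubiquitin ligase of p53 and itself one of its targets, lay between 8.47 and 8.77 in all 13 arrays. Its group means were 8.61 (PBS CD103 low), 8.60 (PBS CD103 high), 8.62 (MDP CD103 low) and 8.61 (MDP CD103 high). The difference after MDP in CD103 high cells was 0.01 ± 0.09 (adjusted p = 0.974), with an unadjusted 95% interval from -0.18 to 0.20, so a change of more than 1.15-fold lies outside it. In CD103 low cells it was 0.01 ± 0.08 (adjusted p = 0.991), and between subsets -0.01 ± 0.08 (adjusted p = 0.987) in PBS and -0.01 ± 0.09 (adjusted p = 0.991) in MDP mice.

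Ccng1, which encodes cyclin G1, a p53 target that guides a phosphatase to Mdm2, measured 10.63, 10.74 and 10.69 in MDP CD103 high arrays and 10.52, 10.62 and 10.37 in PBS CD103 high arrays. These did not overlap, yet the difference of 0.18 ± 0.08 was not called (adjusted p = 0.357, unadjusted p = 0.0446). In CD103 low cells it was 0.07 ± 0.07 (adjusted p = 0.909). Between the subsets it was -0.01 ± 0.07 (adjusted p = 0.992) in PBS and 0.11 ± 0.08 (adjusted p = 0.715) in MDP mice.

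Sesn2, a leucine sensor that restrains mTORC1 and answers to both p53 and Atf4, measured 9.09, 9.19, 9.25 and 8.98 in PBS CD103 low and 9.42, 9.47 and 9.34 in PBS CD103 high arrays. The CD103 high arrays were all higher, by 0.28 ± 0.09, which was the smallest p among the members in this comparison (unadjusted p = 0.0103) and did not pass (adjusted p = 0.429). In MDP mice the subsets overlapped, at 9.48, 9.19 and 9.38 in CD103 low and 9.11, 9.34 and 9.34 in CD103 high cells, with a difference of -0.09 ± 0.10 (adjusted p = 0.835). The difference after MDP was 0.22 ± 0.09 (adjusted p = 0.803) in CD103 low and -0.14 ± 0.10 (adjusted p = 0.605) in CD103 high cells. The responses differed by -0.37 ± 0.14 (adjusted p = 0.405).

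**Figure D3:**
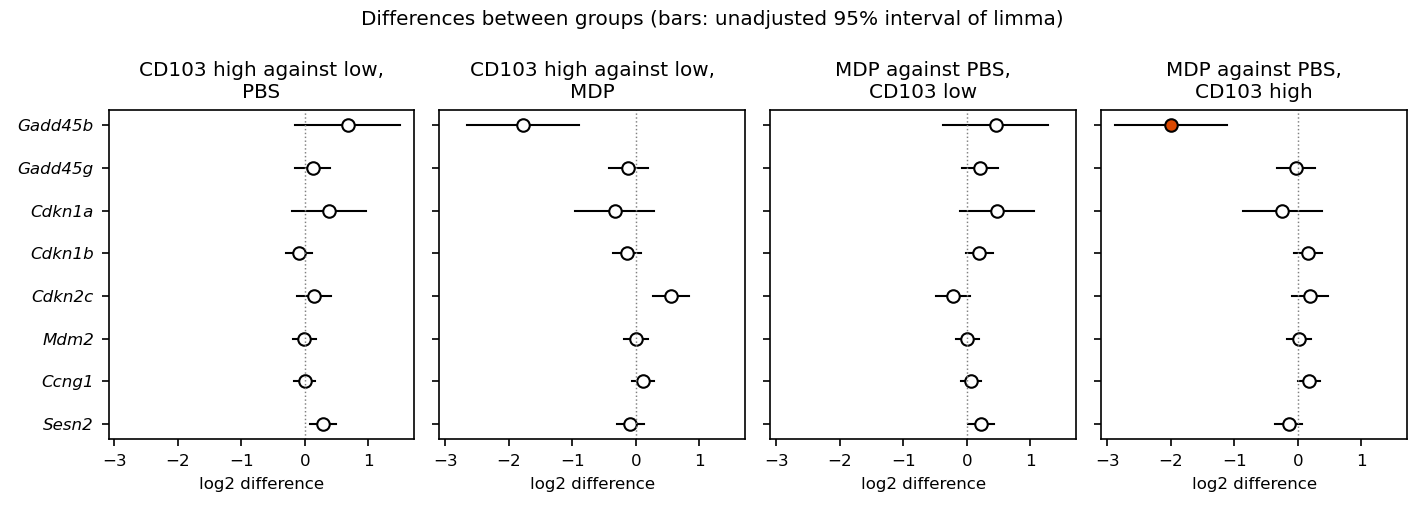
Log2 difference (horizontal axes) of each member in the 4 comparisons between groups, with its unadjusted 95% interval from limma; a filled point is called and an open point is not. The filled point is Gadd45b at -1.99 in CD103 high cells after MDP, and Gadd45b has the widest interval of the members in each panel.

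In CD103 high cells 1 of 8 members was called after MDP, where 1.82% of all genes were, and 0.397% were called as lower. Between the subsets 0 of 8 were called in PBS mice, where 0.0766% of all genes were, and 0 of 8 in MDP mice, where 0.523% were. After MDP in CD103 low cells 0 of 8 were called, where 0.00451% of all genes were, and in the difference of responses 0 of 8, where 0.0721% were. At an unadjusted p under 0.05 in limma the members numbered 1 in PBS subsets (8.52% of all genes), 2 in MDP subsets (10.2%), 1 in CD103 low cells after MDP (6.06%), 2 in CD103 high cells after MDP (13.3%) and 3 in the difference of responses (9.63%). Members whose arrays did not overlap numbered 2 in PBS subsets (8.53% of all genes), 3 in MDP subsets (14.4%), 0 in CD103 low cells after MDP (5.50%) and 2 in CD103 high cells after MDP (19.0%). The median log2 difference of the members was 0.13, -0.10, 0.20 and -0.01 in these comparisons, against -0.003, -0.014, 0.004 and -0.013 over all genes.

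Genes that work with the members were read from 6 lists. In CD103 high cells after MDP 1.82% of all genes were called, and the counts there stand beside that share. Of 15 measured CDK inhibitor targets and partners, 9 rose in CD103 high cells after MDP and 0 fell, with a median of 0.48. Skp2, which targets Cdkn1b for destruction, rose by 0.86 ± 0.11 (adjusted p = 0.00428), Cdk6 by 0.85 ± 0.14 (adjusted p = 0.00842) and PCNA, Pcna, by 0.50 ± 0.09 (adjusted p = 0.0153). Cdk6 had means of 7.65 in PBS CD103 low, 6.78 in PBS CD103 high, 7.96 in MDP CD103 low and 7.63 in MDP CD103 high. Its -0.87 between PBS subsets was the lowest difference of the list there, and its rise ended near the PBS CD103 low mean. In MDP mice 1 of these 15 was higher in CD103 high cells, and in PBS mice 1 was lower. At an unadjusted p under 0.05 in limma there were 10 and 2, where 10.2% and 8.52% of all genes were. In CD103 low cells after MDP and in the difference of responses 0 were called (2 and 11 at an unadjusted p under 0.05, where 6.06% and 9.63% of all genes were). Proliferation genes moved with this list: 15 of 19 rose in CD103 high cells after MDP, and several genes, such as Pcna, Ccna2 and Cdk1, stand in both lists. The remaining CDK inhibitors had 1 of 5 that rose there, Cdkn2d, an INK4 inhibitor (0.57 ± 0.12, adjusted p = 0.0302), beside Cdkn2a (-0.26 ± 0.10, adjusted p = 0.275) and Cdkn3 (0.41 ± 0.18, adjusted p = 0.348).

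Of 32 measured p53 target genes, 1 rose in CD103 high cells after MDP and 0 fell, where 1.82% of all genes were called. The median of the list was 0.04, and its differences ranged from -0.63 to 0.67. At an unadjusted p under 0.05 in limma there were 8 of the 32, where 13.3% of all genes were. The gene that rose was Gtse1 (0.67 ± 0.15, adjusted p = 0.0464), which is made in S and G2 phase and is known to restrain p53. Apaf1, the scaffold of the apoptosome (0.30 ± 0.08, adjusted p = 0.105), and Polk, a DNA polymerase that copies past lesions (0.25 ± 0.07, adjusted p = 0.129), were not called. Of 18 p53 regulators and relatives 2 rose there, Chek1, a kinase of the replication checkpoint (0.92 ± 0.18, adjusted p = 0.0192), and Atm, a kinase that senses broken DNA (0.40 ± 0.08, adjusted p = 0.0290), while Chek2 had 0.35 ± 0.13 (adjusted p = 0.260). The median of that list was 0.02. Of 13 Gadd45 partners and p38-JNK kinases 1 rose, Pcna. Map3k4, the kinase bound by Gadd45 proteins, had 0.15 ± 0.07 (adjusted p = 0.370), Mapk14, the main p38 kinase, -0.13 ± 0.08 (adjusted p = 0.492), and the median was -0.03. Of 17 sestrin relatives and partners 0 were called, with a median of -0.04. Sesn3 had -0.36 ± 0.12 (adjusted p = 0.173), Sqstm1 -0.21 ± 0.09 (adjusted p = 0.333) and Depdc5 0.18 ± 0.09 (adjusted p = 0.385). In this comparison 3 of the 18 p53 regulators and 2 of the 13 Gadd45 partners had an unadjusted p under 0.05 in limma. So did 2 of the 17 sestrin relatives and 3 of the 5 remaining CDK inhibitors, where 13.3% of all genes did. In the other 4 comparisons 0 genes of these 4 lists and of the remaining CDK inhibitors were called by limma, where at most 6 genes of a list had an unadjusted p under 0.05. Those 6 were among the 32 p53 targets in the difference of responses, where 9.63% of all genes were under it. Of the 5 remaining CDK inhibitors, 3 were under it in MDP subsets (10.2% of all genes) and 3 in the difference of responses. In PBS subsets and in CD103 low cells after MDP 0 of those 5 were.

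**Figure D4:**
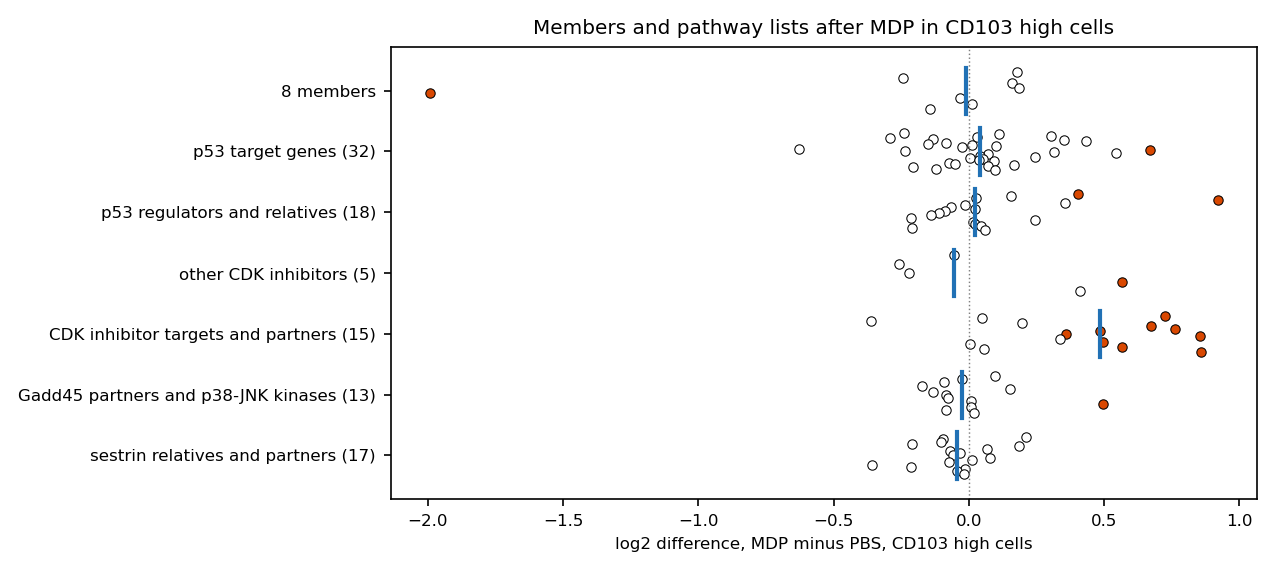
Log2 difference between MDP and PBS mice in CD103 high cells (horizontal axis) for each of the 8 members and each measured gene of the 6 lists (rows, with the number of genes in brackets); filled points are called, open points are not, and the vertical bar is the median of the row. Gadd45b lies at -1.99, far from the other members, and the list of CDK inhibitor targets and partners has its median at 0.48.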

How the data were processed

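RNA of sorted cells (400 ng, pre-amplified, per the labels' protocols) was hybridised to 13 arrays. The authors deposited log2 values per probe set, made with RMA in Affymetrix Expression Console per the submitters' processing notes (version and genome build not given in the sources used here). The RMA method makes the distributions of arrays alike, which removes a shift shared by most genes. Of 41345 probe sets, 23521 had 1 gene symbol, 1814 had several and 16010 were unlisted; those with 1 symbol gave 22180 genes, 1082 with more than 1 probe set, of which the one with the highest mean was used. No low values were left out.

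All arrays were fitted with limma 3.58.1 (R 4.3.3), 1 mean per group and eBayes, with 9 residual and 3.86 prior degrees of freedom. Tests were two-sided, adjusted by Benjamini-Hochberg over all genes of a comparison. The number of arrays limits the precision; the median SE was 0.103 to 0.151. The fit was tested on simulated data. Members, lists and tests were chosen with earlier results of these data known. All members are named; from each list the 3 genes with the smallest p in CD103 high cells after MDP were named. For Gadd45b, the 1 member called, the 3 most similar genes were named. Birc3, Cd80, Itgae and single markers of other cells were named after their values were seen. Replicate numbers recur across groups, so the numbers were also fitted as a block. The deviations from group means had r of 0.196 to 0.372 in the 4 same-numbered pairs of CD103 low and high arrays of one treatment. Same-numbered pairs from different treatments had r of -0.236 to 0.45. Pairs with different numbers were not compared, so a pairing by number is not shown. Tables and plots used Python 3.11.15, pandas 2.3.3, numpy 2.4.6 and matplotlib 3.10.9.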

Additional observations from a re-analysis of the deposited data

Results flagged for a closer look

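Cdkn1a in PBS CD103 low cells had 1 array far from the others. Replicate 6 measured 7.88, against 8.52 to 8.53 in the other 3 arrays, a gap of 0.986 of the whole range of the group. Without that array the group mean was 8.53 instead of 8.37. This was the 1 such gap among the 8 members tested in the 1 group of 4 arrays, where chance alone marks about 1 in 20.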

How the results depend on the processing

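Over 22 alternatives run on every comparison they apply to, the fall of Gadd45b in CD103 high cells after MDP kept its direction in 22 and stayed past the threshold in 17, with adjusted p from 0.00167 to 0.124. Members called there numbered 0 with a variance trend and robust fit (adjusted p = 0.0508, -1.99), and from 0 to 1 over single arrays left out. Between the subsets of MDP mice they numbered 2 when only genes above the olfactory level were tested (Gadd45b and Cdkn2c), an alternative with fewer genes to adjust over, and from 0 to 1 over single arrays left out. In the other 3 comparisons 0 members were called in all alternatives. Same-numbered arrays of one treatment as a replicate block gave -1.93 for Gadd45b (adjusted p = 0.0300), and the block changed no call of a member. Of 39 member values not called, 2 were called under some alternative and 10 turned their sign under some, the largest of these at 0.46. Centring arrays on their medians shifted comparisons by at most 0.0201. Values for arrays split by Xist were added after the data were seen.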
